A study of Mus musculus with 6 samples.

Results

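The genes described here are 10 CC chemokines of the mouse: Ccl2, Ccl5, Ccl6, Ccl7, Ccl8, Ccl9, Ccl11, Ccl12, Ccl19 and Ccl22. They were chosen with earlier results of these data known, so their counts beside those of all genes are a description only. All 10 were found among the 24061 gene rows of the count table, and all 10 passed the filter on low counts. RNA of whole lung was sequenced in 6 libraries. The control group (genotype CCSP/-, 3 libraries) carried the CCSP construct alone, and the other group (CCSP/TGFalpha, 3 libraries) carried CCSP together with TGFalpha. Both groups had been on doxycycline for 3 weeks, so the CCSP construct and the drug were common to all 6 libraries and the TGFalpha transgene was the labelled difference. CCSP is the club cell secretory protein, and its promoter is used to direct doxycycline-dependent expression to the lung epithelium. TGFalpha is a ligand of the epidermal growth factor receptor. The series asks how the lung transcriptome differs during lung fibrosis that TGFalpha induces. The sources used here give no strain, age or sex and do not say whether each library came from 1 animal. The p-values therefore reflect only the spread between libraries, which may be technical. Libraries are called control 1 to 3 and TGFalpha 1 to 3 after their replicate numbers.

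CC chemokines are small secreted proteins that draw leukocytes along a gradient by binding G protein-coupled receptors on them. The name refers to a pair of neighbouring cysteines near the start of the mature protein. One branch, the monocyte chemoattractants and eotaxins, recruits monocytes and eosinophils to inflamed tissue, while others, such as Ccl19 and Ccl22, guide dendritic cells and T cells. In the lung, CC chemokines are made by macrophages, dendritic cells, epithelium, endothelium and fibroblasts.

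The paired cysteine codons that define the family are shown for each gene, as the coding strand of its longest protein-coding transcript in GENCODE M21 (GRCm38). The cysteine codon pair is in capitals, with 12 bases on each side.
Ccl2: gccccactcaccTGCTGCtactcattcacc
Ccl7: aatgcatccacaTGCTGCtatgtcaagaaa
Ccl11: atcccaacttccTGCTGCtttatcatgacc
Ccl12: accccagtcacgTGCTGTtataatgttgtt
Ccl8: gctccagtcaccTGCTGCtttcatgtacta
Ccl5: gacaccactcccTGCTGCtttgcctacctc
Ccl9: gactcttcagatTGCTGCctgtcctataac
Ccl6: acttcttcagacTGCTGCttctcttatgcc
Ccl19: gatgcggaagacTGCTGCctgtctgtgacc
Ccl22: gaagacagtatcTGCTGCcaggactacatc
Each of the 10 coding sequences held exactly 1 such pair in frame. It was TGCTGC in all but Ccl12, where the second codon was TGT and the pair lies at chr11:82102634-82102639. The first codon of the pair lay between codon 32 (Ccl8 and Ccl11) and codon 57 (Ccl9). The 2 genes with the latest pair, Ccl9 and Ccl6 (codon 50), had 4 exons, whereas the other 8 had 3. Over the 45 pairs of genes the identity of the aligned coding sequences ran from 37.6 to 66.3%, with a median of 47.7%. The closest pairs were Ccl7 with Ccl11 (66.3%), Ccl6 with Ccl9 (64.8%) and Ccl8 with Ccl12 (64.4%).

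Of the 10 genes, 8 lie on chromosome 11 in 2 groups (RefSeq coordinates, GRCm38). In the first, which spans 81.2 kb, Ccl2 (gene ID 20296) runs from 82035577 to 82037452, Ccl7 (20306) from 82045712 to 82047525, Ccl11 (20292) from 82057832 to 82062955, Ccl12 (20293) from 82101845 to 82103399 and Ccl8 (20307) from 82115185 to 82116799. The second holds Ccl5 (20304) from 83525778 to 83530518, Ccl9 (20308) from 83572917 to 83578636 and Ccl6 (20305) from 83587886 to 83593087. Ccl19 (24047) is on chromosome 4 from 42754525 to 42756365, and Ccl22 (20299) is on chromosome 8 from 94745684 to 94751388. All are protein-coding genes. Ccl5, Ccl6 and Ccl19 overlap an annotated long non-coding RNA, and without a stated strand setting reads of such partners cannot be told apart. The partner of Ccl6 had 50 to 133 counts per library, against at least 15561 for Ccl6. Ccl19 also has annotated pseudogene copies with which its reads could have been shared, so its values are uncertain.

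In the CCSP/TGFalpha lungs, 3 monocyte chemoattractant genes rose: Ccl12 by 8.48-fold, Ccl7 by 7.63-fold and Ccl2 by 3.57-fold. The dendritic cell and macrophage chemokine Ccl22 fell 3.32-fold. The other 6 genes did not pass the test, among them Ccl6, which held most of the reads of the family. Thus 3 of 10 were called higher, where 5.03% of all 16089 genes tested were, and 1 of 10 was called lower, where 3.29% were (edgeR quasi-likelihood test, Benjamini-Hochberg adjusted p under 0.05). DESeq2 called 4 higher and 2 lower (7.46 and 7.08% of all genes), and limma-voom 3 and 2 (4.98 and 3.72%). For the 10 members the median log2 fold change was 0.32, against 0.01 over all genes tested. The groups did not overlap for 7 of the 10 genes, where 33.2% of all genes tested did not. Of these, 4 were above the controls, as were 17.7% of all genes, and 3 below, as were 15.5%.

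These counts rested on few libraries. The members called higher numbered 3 without control 1, 1 without control 2, 2 without control 3, 2 without TGFalpha 1, 2 without TGFalpha 2 and 3 without TGFalpha 3, beside 3.24, 1.6, 1.24, 1.94, 2.51 and 3.67% of all genes in those fits. The 2 members Ccl19 and Ccl22 were called lower without TGFalpha 2, and in the 5 other fits edgeR called none lower, where 1 or 2 were so at an unadjusted p under 0.05. All genes were called lower at 2.9, 0.261, 0.206, 0.574, 0.918 and 2.92% in the same 6 fits.

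**Figure D1:**
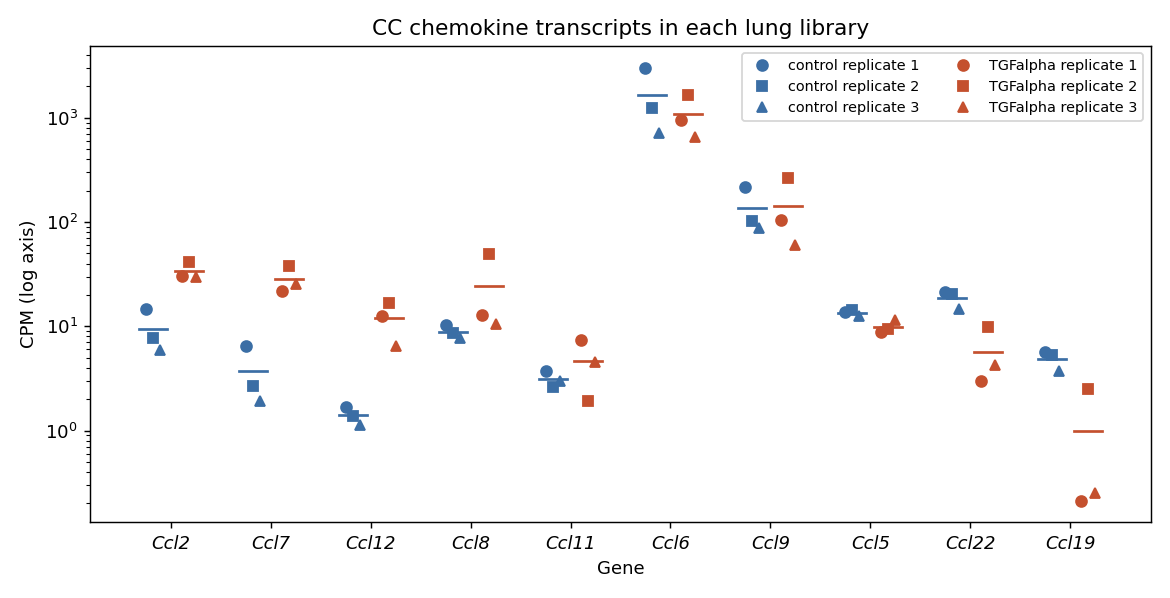
Level of each CC chemokine in each library, in CPM (the count relative to the scaled library total) on a log axis. Points are libraries (blue, control; red, TGFalpha; symbol shape gives the replicate number) and bars are group means. Ccl2, Ccl7, Ccl12 and Ccl8 lie higher in all 3 TGFalpha libraries than in any control, and Ccl5, Ccl22 and Ccl19 lie lower.

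Library totals ran from 21479006 to 24914322 counts. Tgfa, the mouse gene of the transgene's name, stood at 25.8 ± 2.94 CPM (SD, n = 3) in the control group and at 27.5 ± 2.09 CPM in the other (adjusted p = 0.739), and would hold transgene reads only as far as the sequences match. All 10 alveolar type 2 markers were detected, with sums of 21231 to 35992 CPM. Lyz2, which was highest in control 1 and TGFalpha 2, made up 23.4 to 47.7% of these sums. Without it they were 14231 to 18809 CPM. Control 1 and TGFalpha 1 held skeletal muscle transcripts, with summed markers at 1459 and 2526 CPM against 53.4 to 70.6 CPM in the other 4 libraries. In the fit without those 2 libraries 3 of the 10 chemokines were called higher, beside 1.91% of all genes. None was called lower by edgeR, beside 1.03% of all genes, and 1 was lower by unadjusted p at the 0.05 threshold. Control 3 was low in mesothelial markers, with a sum of 298.8 CPM against 473.3 to 609.9 CPM in the other libraries. Without Krt19, the most abundant of them, the sum was 108.3 CPM against 324.8 to 459.5 CPM. How this bears on the chemokine values was not tested. The members also shared an order among libraries. Control 1 was the highest control for 9 of the 10 genes and control 3 the lowest for 9, and TGFalpha 2 was the highest of its group for 8. Over all genes tested, those 3 positions were held by 35, 31 and 33.1% of genes.

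The monocyte chemoattractants Ccl2, Ccl7 and Ccl12 bind Ccr2 or related receptors and are best known for recruiting monocytes. Ccl12 was at 1.69, 1.38 and 1.14 CPM in control replicates 1 to 3, which rests on 25 to 42 counts. It was at 12.5, 16.8 and 6.49 CPM in TGFalpha replicates 1 to 3. The lowest TGFalpha library was thus well above the highest control. Its log2 fold change was 3.08 ± 0.40 (SE; adjusted p = 0.0052), and the call held in all 6 edgeR fits that left out 1 library (adjusted p between 0.0027 and 0.039).

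Ccl7, also called monocyte chemotactic protein 3, was at 6.46, 2.7 and 1.92 CPM in the controls. The TGFalpha libraries held 21.6, 38.2 and 25.2 CPM. Control 1 stood above the other controls but remained far under the TGFalpha libraries. This gave a log2 fold change of 2.93 ± 0.45 (adjusted p = 0.00969), and of the fits with 1 library left out only that without control 2 lost the call (adjusted p = 0.062). Over those 6 fits its log2 fold change lay between 2.62 and 3.60, and the highest value was that without control 1.

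Ccl2, the prototype of the branch, was at 14.7, 7.66 and 5.89 CPM in the controls and at 30.3, 41.1 and 29.9 CPM in the TGFalpha libraries. Again control 1 was the highest control, and the groups did not overlap. Ccl2 passed, its log2 fold change being 1.84 ± 0.33 (adjusted p = 0.0189). It no longer did without control 2 (adjusted p = 0.088), control 3 (0.071), TGFalpha 1 (0.056) or TGFalpha 2 (0.056), with log2 fold changes from 1.59 to 2.31 over all 6 such fits.

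The proportions among these 3 genes also differed between the libraries. For each Ccl2 count there were 0.439, 0.353 and 0.326 Ccl7 counts in the controls and 0.712, 0.931 and 0.843 in the TGFalpha libraries, with no overlap between the groups. The matching ratio of Ccl12 to Ccl2 was 0.114, 0.18 and 0.194 in controls and 0.414, 0.408 and 0.217 in TGFalpha libraries. All 3 ratios of each kind were higher in the TGFalpha group. They do not depend on the scaling of the libraries and were not put to a test.

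Ccl8, which in the mouse acts on Ccr8, was at 10.2, 8.66 and 7.72 CPM in controls and at 12.9, 49.1 and 10.6 CPM in TGFalpha libraries. All 3 TGFalpha values were above the controls, but 2 of them only slightly. Ccl8, whose log2 fold change was 1.45 ± 0.54, did not pass (adjusted p = 0.13), and it was 0.41 (adjusted p = 0.31) without TGFalpha 2. DESeq2 called it higher (adjusted p = 0.019).

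Ccl11, or eotaxin, recruits eosinophils through Ccr3. Its levels were 3.69, 2.61 and 3.01 CPM in controls and 7.35, 1.93 and 4.57 CPM in TGFalpha libraries. The TGFalpha libraries lay on both sides of the controls, with the highest and the lowest value of all 6. Its log2 fold change of 0.57 ± 0.46 did not pass (adjusted p = 0.463; 95% interval -0.49 to 1.63). Ccl11 lies between Ccl7 and Ccl12 on the chromosome, so a gene that did not pass stands between 2 that rose. Of 7 eosinophil markers 4 passed the filter. Epx, Prg2 and Prg3, which define the cells, were at most at 1.79 CPM in any library. The summed level of the list, which holds genes that other cells express too, was 11.6 to 24.3 CPM in controls and 9.26 to 20.8 CPM in TGFalpha libraries.

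**Figure D2:**
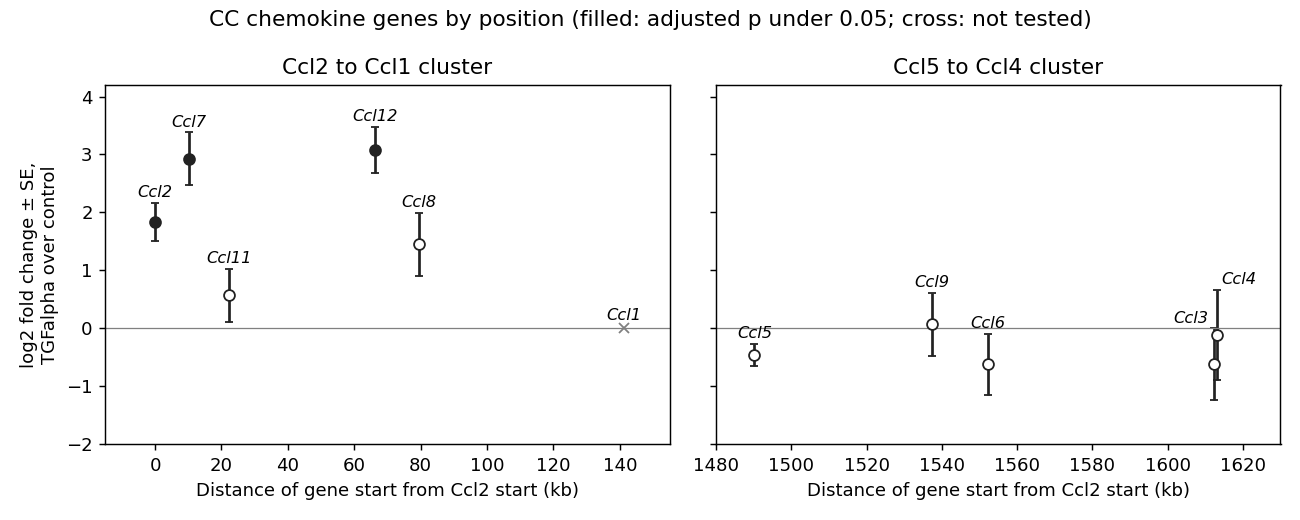
Log2 fold change (TGFalpha over control, ± SE) of the chromosome 11 CC chemokine genes against the distance of each gene's start from that of Ccl2, in kb. Filled points passed an adjusted p of 0.05 and the cross marks Ccl1, which had no counts; the 3 genes that rose are in the first group, where Ccl11 and Ccl8 did not pass, and none of the second group passed.

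Promoter sequences were held by RefSeq (GRCm38.p6) for 6 of the 10 genes, namely Ccl6, Ccl8, Ccl9, Ccl12, Ccl19 and Ccl22. The 250 bases before the start are shown for Ccl12, which rose, for its neighbour Ccl8 and for Ccl22, which fell. They lie at chr11:82101595-82101844, chr11:82114935-82115184 and chr8:94745434-94745683, all on the plus strand, and capitals mark TATAAA.
Ccl12: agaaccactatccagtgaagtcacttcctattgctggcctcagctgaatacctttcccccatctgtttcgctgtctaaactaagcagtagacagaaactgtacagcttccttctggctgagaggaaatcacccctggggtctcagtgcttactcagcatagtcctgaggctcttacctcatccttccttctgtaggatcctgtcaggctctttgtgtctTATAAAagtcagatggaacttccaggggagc
Ccl8: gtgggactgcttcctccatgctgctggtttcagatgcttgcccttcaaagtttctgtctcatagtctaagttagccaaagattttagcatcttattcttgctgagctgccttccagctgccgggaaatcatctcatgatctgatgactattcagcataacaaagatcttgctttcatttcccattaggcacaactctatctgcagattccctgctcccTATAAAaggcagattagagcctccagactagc
Ccl22: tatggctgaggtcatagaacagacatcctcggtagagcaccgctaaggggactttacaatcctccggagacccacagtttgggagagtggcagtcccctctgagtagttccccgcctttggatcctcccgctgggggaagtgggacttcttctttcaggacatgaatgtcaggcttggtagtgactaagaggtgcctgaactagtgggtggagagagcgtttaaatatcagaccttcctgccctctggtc
Ccl12 and Ccl8 each held TATAAA, with its first base 31 and 32 bases before the start, and Ccl22 held none. On either strand, 12.4% of all 32851 promoter windows of this length hold TATAAA. Another 3 patterns were searched on both strands: the NF-kB consensus, TGANTCA (AP-1) and TTCNNNGAA (STAT), which 7.3, 6.7 and 7% of all windows hold. None of the 3 was found in these windows of Ccl12, Ccl8, Ccl22, Ccl6 or Ccl19, while that of Ccl9 held 1 NF-kB and 1 TGANTCA match, which did not overlap, and 3 of TATAAA, 2 of which overlapped each other on opposite strands.

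Ccl6 and Ccl9, close relatives in sequence and neighbours on chromosome 11, act through Ccr1 and are made by macrophages and other myeloid cells. Their reads dominated the family. Ccl6 alone made up 83.8 to 91.1% of the counts of the 10 genes in controls and 79.1 to 82.5% in TGFalpha libraries, and the 10 genes together made up 0.0824 to 0.334% of all counts of a library. Ccl6 was at 3033, 1240 and 719 CPM in controls and at 943, 1654 and 652 CPM in TGFalpha libraries. Control 1 was the highest of all, and the groups overlapped. Between groups the log2 fold change was -0.62 ± 0.53 (adjusted p = 0.48; 95% interval -1.83 to 0.59). Without control 1 it turned to 0.13 (adjusted p = 0.86).

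Ccl9 was at 219, 103 and 88 CPM in controls and at 104, 267 and 59.9 CPM in TGFalpha libraries. The highest and the lowest library were both from the TGFalpha group. Its log2 fold change was 0.07 ± 0.54 (adjusted p = 0.946; 95% interval -1.17 to 1.31), and it was -0.74 (adjusted p = 0.33) without TGFalpha 2.

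The spread of Ccl6 and Ccl9 within each group went with that of some alveolar macrophage markers. The chitinase-like lectin Chil3 was at 16423, 6431 and 4891 CPM in controls and at 1881, 14457 and 1741 CPM in TGFalpha libraries. Control 1 and TGFalpha 2 were thus the highest libraries for Chil3, Ccl6 and Ccl9 alike. Ear2, an eosinophil-associated ribonuclease gene also found in alveolar macrophages, had the same 2 libraries on top, at 861 and 588 CPM. So had Ear1, Plet1 and Itgax. Siglecf, a sialic acid-binding lectin that defines alveolar macrophages, did not share this order, with 13.4, 19.2 and 17.3 CPM in controls and 13.5, 22.9 and 13.4 CPM in TGFalpha libraries. Nor did Marco, Pparg, Car4, Krt79, Cidec and Fabp1, and Car4 was lowest in TGFalpha 2 (60.2 CPM). Of the 12 alveolar macrophage markers none passed in either direction by edgeR or limma-voom, beside 8.33 and 8.7% of all genes. DESeq2 called 1 lower, beside 7.08% of all genes, and 1 had an unadjusted p under 0.05 by edgeR. In both cases the gene was Car4, which is on the list of vascular endothelial markers as well. DESeq2 called all 12 genes of that vascular list lower, Car4 included. Which cells carried the Car4 reads was not tested. Chil3 made up 71.4 to 91.6% of the summed level of the alveolar macrophage markers. That sum ran from 5820 to 18317 CPM in controls and from 2354 to 15785 CPM in TGFalpha libraries, and no marker was at 0. The part of these cells in the result was not tested. In such bulk samples fewer cells of a type and less RNA per cell cannot be told apart.

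**Figure D3:**
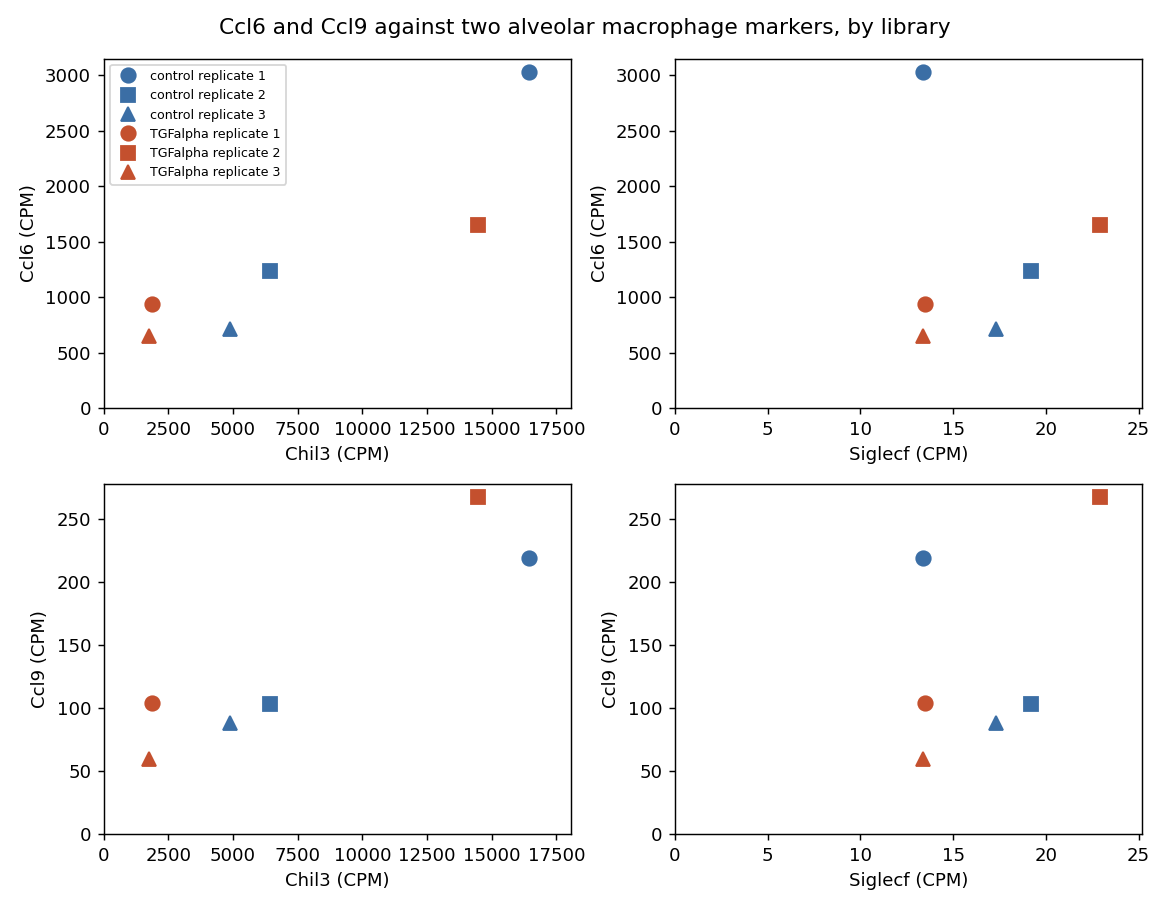
Ccl6 (top) and Ccl9 (bottom) against the alveolar macrophage markers Chil3 (left) and Siglecf (right), all in CPM, 1 point for each of the 6 libraries. The 2 libraries highest in Chil3, control 1 at 16423 CPM and TGFalpha 2 at 14457 CPM, are also the 2 highest in Ccl6 and Ccl9, whereas control 1 is among the lowest in Siglecf (13.4 CPM).

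Ccl22, a ligand of Ccr4 made by dendritic cells and macrophages, attracts type 2 helper and regulatory T cells. It was at 21.4, 20.4 and 14.8 CPM in controls and at 3.02, 9.79 and 4.27 CPM in TGFalpha libraries. TGFalpha 2 was the nearest to the controls and still below them all. The log2 fold change was -1.73 ± 0.41 (adjusted p = 0.0421). Of the 6 fits with a library left out, only that without TGFalpha 2 kept the call (log2 fold change -2.37, adjusted p = 0.013). Without control 1, 2 and 3 the adjusted p was 0.069, 0.14 and 0.12, and without TGFalpha 1 and 3 it was 0.1 and 0.099, with log2 fold changes from -2.37 to -1.42 over the 6 fits.

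Ccl19 guides dendritic cells and T cells to lymphoid tissue through Ccr7. It had 140, 115 and 82 counts in the controls (5.62, 5.27 and 3.74 CPM) and 5, 61 and 6 counts in the TGFalpha libraries (0.213, 2.51 and 0.251 CPM). All 3 TGFalpha libraries were below the controls, and TGFalpha 2 was the nearest to them. Ccl19, whose log2 fold change was -2.29 ± 0.84, did not pass (adjusted p = 0.125). It was -4.36 (adjusted p = 0.0099) without TGFalpha 2. DESeq2 and limma-voom called it lower (adjusted p = 0.017 and 0.038).

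Ccl5, made by T and NK cells among others, binds Ccr1 and Ccr3 among others. It was at 13.8, 14.3 and 12.6 CPM in controls and at 8.84, 9.33 and 11.4 CPM in TGFalpha libraries. The groups did not overlap, but the gap between TGFalpha 3 and control 3 was small. The resulting log2 fold change of -0.46 ± 0.19 did not pass (adjusted p = 0.158), and it lay between -0.58 and -0.39 with any 1 library left out.

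Per kilobase of transcript, the order of levels in controls was Ccl6, Ccl9, Ccl5, Ccl8, Ccl2, Ccl22, Ccl19, Ccl7, Ccl11 and Ccl12. Ccl6 stood at 1156 ± 843 CPM per kb and Ccl9 at 45.5 ± 23.9, with all Ccl6 libraries above all Ccl9 libraries. Ccl5 (25.5 ± 1.6) and Ccl8 (17.3 ± 2.45) followed, and neither overlapped the gene above it. From there on neighbours were not separated. Ccl8 overlapped Ccl2 (11.6 ± 5.76), Ccl2 overlapped Ccl22 (8.53 ± 1.61), and Ccl22 overlapped Ccl19 (6.31 ± 1.29). Ccl7 (4.61 ± 3.03), Ccl11 (2.87 ± 0.505) and Ccl12 (2.61 ± 0.509) closed the order and overlapped their neighbours. In TGFalpha libraries the order was Ccl6 (752 ± 358), Ccl9 (47.8 ± 36.3), Ccl8 (47.4 ± 42.3), Ccl2 (41.5 ± 7.79), Ccl7 (35.4 ± 10.9), Ccl12 (22.2 ± 9.62), Ccl5 (18.5 ± 2.5), Ccl11 (4.27 ± 2.51), Ccl22 (2.57 ± 1.62) and Ccl19 (1.28 ± 1.7). There Ccl9 to Ccl5 each overlapped the next, and so did Ccl11, Ccl22 and Ccl19. Ccl2 and Ccl7 thus stood beside Ccl9 per kilobase in TGFalpha lungs, while in controls every library of Ccl7 was under every library of Ccl9.

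The genes whose profile over the 6 libraries lay nearest to each called member were, for Ccl7, Lum, Has2 and Fstl1 (Euclidean distances of centred log2 CPM 0.502, 0.654 and 0.787). Lum encodes the collagen-binding proteoglycan lumican, Has2 a hyaluronan synthase and Fstl1 a secreted follistatin-like protein. For Ccl2 they were Il34, a ligand of the macrophage colony-stimulating factor receptor (0.348), Dnajc6 (0.481) and Psrc1 (0.491). For Ccl12 they were Pde1a, Ildr2 and Serpinf1 (0.509, 0.554 and 0.559). For Ccl22 they were Spata18, Ly6i and Mfsd2a (0.687, 0.713 and 0.811). These distances describe 6 libraries only and carry no test. Among the members themselves the nearest pairs were Ccl19 with Ccl22 (0.8), Ccl6 with Ccl9 (0.935) and Ccl7 with Ccl12 (1.2).

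Of the CC chemokine receptors listed here 8 were tested, with a median log2 fold change of -0.64. Ccr1 alone among these 8 rose by edgeR, DESeq2 also called 1 higher, and limma-voom none, beside 5.03, 7.46 and 4.98% of all genes. None fell by edgeR, DESeq2 or limma-voom, beside 3.29, 7.08 and 3.72% of all genes, with 2 lower by unadjusted p in edgeR. Ccr1, a receptor of Ccl5, Ccl6, Ccl7 and Ccl9, went from 34.4 ± 8.42 to 73.1 ± 25.7 CPM, or by 1.09 ± 0.28 on the log2 scale (adjusted p = 0.0499). It passed only narrowly, and did not when control 2 (adjusted p = 0.17), control 3 (0.19), TGFalpha 1 (0.12) or TGFalpha 2 (0.11) was left out. Ccr2, the main receptor of Ccl2, Ccl7 and Ccl12, was at 90.7 ± 13.8 and 118.6 ± 39 CPM, and its log2 fold change of 0.39 ± 0.24 did not pass (adjusted p = 0.334; 95% interval -0.16 to 0.93).

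Ccr7, Ccr4 and Ccr3 did not pass. Ccr7, the receptor of Ccl19, was at 14.1 ± 2.5 and 8.22 ± 2.57 CPM (log2 fold change -0.78 ± 0.26, adjusted p = 0.103). Ccr4, the receptor of Ccl22, was at 6.24 ± 0.996 and 3.79 ± 3.79 CPM (adjusted p = 0.55). Ccr3, the receptor of Ccl11, was at 3.13 ± 0.322 and 1.48 ± 0.462 CPM (log2 fold change -1.08 ± 0.37, adjusted p = 0.105). Ccr8 had at most 0.365 CPM in any library and was not tested.

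Atypical receptors bind chemokines without G protein signalling and clear or store them. Of 6 tested genes of this list, 2 fell by each of edgeR, DESeq2 and limma-voom, beside 3.29, 7.08 and 3.72% of all genes. None rose by any of these, beside 5.03, 7.46 and 4.98% of all genes, with 0 higher by unadjusted p as well. The log2 fold change was negative for all 6 and had a median of -0.57. Beside Ackr1 to Ackr4 and Ccrl2, the list held Pitpnm3, named as a phosphatidylinositol transfer protein gene. Pitpnm3 was at 33.8 and 20.8 CPM and did not pass (adjusted p = 0.111). Ackr4, which clears Ccl19 and Ccl21, fell from 13.7 ± 4.66 to 4.67 ± 1.93 CPM (log2 fold change -1.54 ± 0.39, adjusted p = 0.0492), and of the fits with a library left out only that without control 1 kept the call (adjusted p = 0.031, and 0.063 to 0.19 without each of the others). Ccrl2, which binds the chemoattractant chemerin, fell from 46.9 ± 8.38 to 19.5 ± 4.4 CPM (log2 fold change -1.27 ± 0.22, adjusted p = 0.016). It did not pass when control 2 (0.069) or control 3 (0.079) was left out. Ackr2, a scavenger of inflammatory CC chemokines, was at 55.5 ± 18.2 and 42.8 ± 17 CPM (adjusted p = 0.498). Ackr1, a chemokine-binding protein of red cells and venules, was at 3.17 ± 1.73 and 2.98 ± 1.88 CPM (adjusted p = 0.938).

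**Figure D4:**
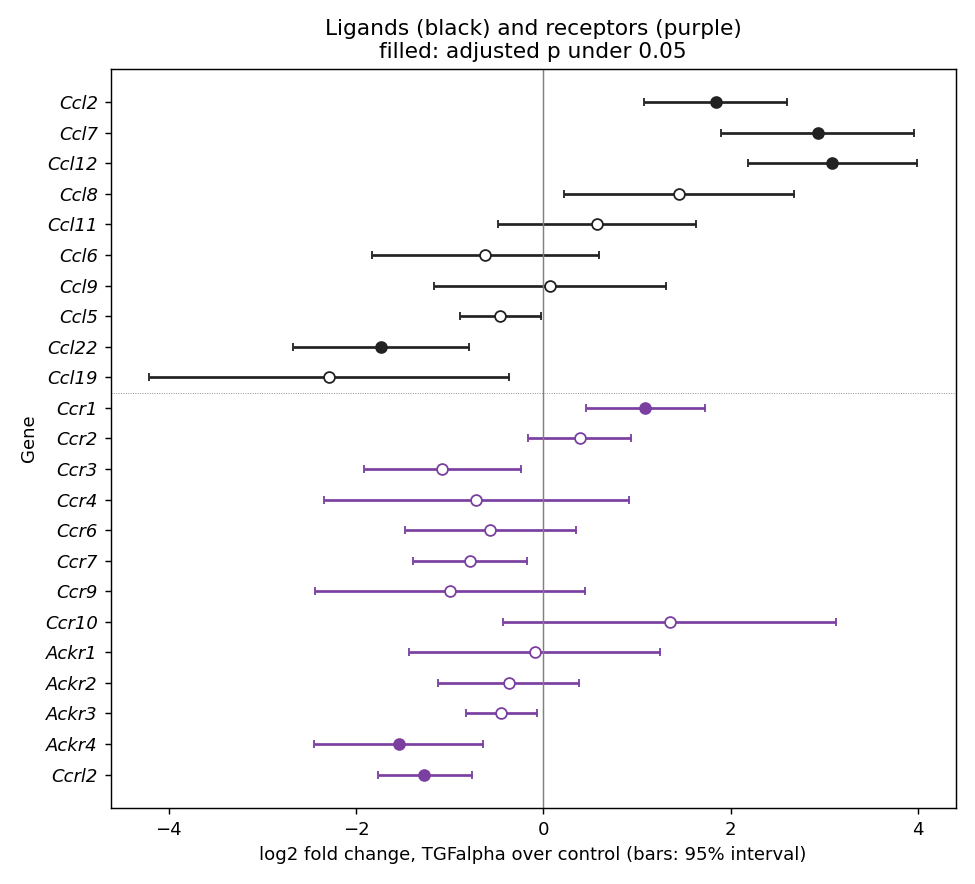
Log2 fold change (TGFalpha over control) with 95% intervals for the 10 ligands (black) and for the tested CC and atypical receptors shown (purple). Filled points passed an adjusted p of 0.05: Ccl2, Ccl7, Ccl12 and Ccr1 to the right of 0, and Ccl22, Ackr4 and Ccrl2 to the left.

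Of the other CC chemokines, 12 of 14 were tested, with a median log2 fold change of -0.53. By edgeR none rose, with 1 higher by unadjusted p, and DESeq2 called 1 higher and limma-voom none. All genes were called higher at 5.03, 7.46 and 4.98% by edgeR, DESeq2 and limma-voom. The 3 rows that fell, beside 3.29% of all genes, were copies of Ccl21, a Ccr7 ligand of lymphatic endothelium. Ccl21a went from 35.9 ± 8.41 to 16.5 ± 3.84 CPM (log2 fold change -1.12 ± 0.23, adjusted p = 0.0283). Ccl21b went from 98 ± 3.05 to 41.6 ± 9.16 CPM (log2 fold change -1.24 ± 0.19, adjusted p = 0.00902). Ccl21c, and Ccl21d outside the list, held exactly the same counts as Ccl21b, as near-identical copies do. These are not separate results, and the median counts both listed rows. The rows of Ccl21a and Ccl27b each also matched another gene row in all counts. Ccl21b did not pass without control 3 (adjusted p = 0.05), nor did Ccl21a without control 2 (0.1), control 3 (0.096), TGFalpha 2 (0.076) or TGFalpha 3 (0.063). Ccl24, an eotaxin made by macrophages, was at 0.482, 0.0917 and 0.183 CPM in controls and 3.91, 0.946 and 0.922 CPM in TGFalpha libraries, and did not pass (adjusted p = 0.0735). Ccl1 and Ccl26 had no counts in any library.

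Of 16 tested cytokines that induce chemokines, Il10 rose and Il5 fell, where 5.03 and 3.29% of all genes tested did. These 16 cytokines had a median log2 fold change of -0.38. Il10, an anti-inflammatory cytokine, went from 0.206 ± 0.143 to 4.67 ± 1.89 CPM (log2 fold change 4.47 ± 0.59, adjusted p = 0.00603), and its call held in all 6 fits with a library left out, with log2 fold changes from 4.13 to 5.14, the latter without control 2. Il5, the eosinophil growth factor, had 14, 21 and 12 counts in controls and 2, 0 and 0 in TGFalpha libraries (adjusted p = 0.0436), and its call was kept in none of the 6 such fits (adjusted p between 0.071 and 0.15). Lif (8.77 ± 1.61 and 13.8 ± 0.414 CPM, adjusted p = 0.0844) and Csf1, the macrophage growth factor (59.2 ± 11 and 43.1 ± 13.8 CPM, adjusted p = 0.262), did not pass.

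In the list of NF-kB, STAT and IRF regulators 1 of 20 fell by edgeR and 2 by DESeq2, beside 3.29 and 7.08% of all genes. None rose by edgeR, DESeq2 or limma-voom, beside 5.03, 7.46 and 4.98% of all genes, nor by unadjusted p. The median log2 fold change was -0.19. The gene that fell by edgeR was Nfkbia, the NF-kB inhibitor and itself an NF-kB target, from 114.6 ± 6.61 to 68.2 ± 13.8 CPM (log2 fold change -0.75 ± 0.17, adjusted p = 0.0396). Of the fits with a library left out, only that without TGFalpha 2 kept its call (0.034, and 0.056 to 0.14 without each of the others). Zfp36, which destabilises cytokine mRNA, was at 111.2 and 76.4 CPM and did not pass (adjusted p = 0.0685). Nor did the feedback inhibitor Tnfaip3 (52.2 and 33.3 CPM, adjusted p = 0.147) and the NF-kB subunit Rel (16 and 7.99 CPM, adjusted p = 0.191).

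Among 11 tested genes that cleave chemokines or anchor them to glycosaminoglycans, 2 rose and 2 fell, where 5.03 and 3.29% of all genes tested did. The median log2 fold change of this list was 0.57. Mmp2, a gelatinase that cleaves Ccl7, rose from 106.3 ± 9.82 to 345.9 ± 51.1 CPM (log2 fold change 1.70 ± 0.17), and Mmp14, its membrane-bound activator, from 68.8 ± 4.02 to 299.2 ± 117.6 CPM (2.12 ± 0.27). Both calls held in all 6 fits with a library left out. Dpp4, a peptidase that trims chemokines such as Ccl5 and Ccl22, fell from 174.1 ± 14.1 to 96.1 ± 28.8 CPM (adjusted p = 0.0475), and the heparan sulfate enzyme gene Ndst1 from 264.2 ± 17.6 to 154.9 ± 38 CPM (adjusted p = 0.0481). Both of these calls were kept only without TGFalpha 3 (0.014 and 0.026), with adjusted p from 0.071 to 0.18 without each of the other libraries.

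Markers of cells that could carry these transcripts moved with some of them. Where 5.03% of all genes tested rose, 8 of 14 markers of monocytes and interstitial macrophages did, C1qa, C1qb, C1qc and Cx3cr1 among them. Their summed level ran from 633 to 875 CPM in controls and from 882 to 1488 CPM in TGFalpha libraries, with TGFalpha 2 highest and no marker at 0, beside the rise of Ccl2, Ccl7 and Ccl12. Leaving out Mrc1, the most abundant of them, the sums were 387 to 468 and 652 to 1142 CPM. Of 12 fibroblast markers 6 rose, namely Col1a1, Col1a2, Col3a1, Dcn, Lum and Mfap5, where 5.03% of all genes tested did. The rest did not pass, with log2 fold changes of 0.46 (Col14a1), 0.29 (Pdgfra), 0.03 (Dpt), -0.24 (Col13a1), -0.42 (Pi16) and -0.61 (Tcf21). The fibroblast sum ran from 1547 to 1796 CPM in controls and from 5437 to 8704 CPM in TGFalpha libraries. Without Col3a1, which made up 37.4 to 57.5% of it, the sums were 968.4 to 1070.3 and 2367.8 to 3700.5 CPM. For the conventional dendritic cell list, 3 of 12 fell and 1 rose, where 3.29 and 5.03% of all genes did. The sum ran from 335 to 356 CPM in controls and from 238 to 275 CPM in TGFalpha libraries, beside the values of Ccl22 and Ccl19. Dpp4, which other cells express too, made up 31.3 to 54.1% of that sum, and without it the groups overlapped, at 161 to 191 CPM in controls and 146 to 180 CPM in TGFalpha libraries. Of 7 lymphatic endothelial markers tested, 4 fell, Ccl21a among them, beside 3.29% of all genes. The lymphatic sums were 262 to 352 and 162 to 189 CPM. Of 11 T cell markers none passed by edgeR or limma-voom. DESeq2 called 1 lower, beside 7.08% of all genes, and 2 were lower by unadjusted p in edgeR. The T cell sums were 128 to 160 and 81.5 to 160 CPM, beside the values of Ccl5. Of 10 NK cell markers none passed by edgeR or limma-voom either. DESeq2 called 3 of them lower, beside 7.08% of all genes, and 5 were lower by unadjusted p in edgeR. All 10 had a negative log2 fold change, with a median of -0.84. The groups did not overlap for 5, where 33.2% of all genes tested did not and 15.5% lay below the controls. The sum of the 10 NK cell markers ran from 75.1 to 154 CPM in controls and from 49.9 to 83.5 CPM in TGFalpha libraries, which overlapped. Of 12 vascular endothelial markers 6 fell by edgeR and 12 by DESeq2, beside 3.29 and 7.08% of all genes. The vascular sums were 2970 to 5136 and 1487 to 2729 CPM. The part of these cells in the chemokine results was not tested.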

How the data were processed

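Per the submitters' processing notes, bcl2fastq, CASAVA 1.8, TopHat and DESeq were used with build mm10. The sources used here do not give the counting tool, its strand setting or its annotation. The authors deposited raw gene counts for 24061 identifiers. RefSeq (GRCm38.p6) named 23976, and the rest, 1.73 to 3.8% of counts, stayed in the totals.

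Groups came from the titles. Counts were scaled by TMM, passed through the expression filter of edgeR and tested by its quasi-likelihood method (edgeR 4.0.16, R 4.3.3), with group as the only term and Benjamini-Hochberg adjustment over 16089 genes. CPM used the scaled library sizes, and CPM per kb the longest protein-coding transcript. The edgeR step was tested on simulated data. DESeq2 1.42.0, limma-voom (limma 3.58.1), other scalings and filters, a replicate block and each library left out were alternatives. Coding sequences were aligned globally with Biopython 1.88.

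The members and gene lists were chosen with earlier results of these data known, and 1 listed gene is not reported here. Named genes were the members, called or paired ligands and receptors, the 4 smallest p-values of each of the other 3 lists, and, for each called member, the 3 nearest profiles (log2 of CPM + 0.5, mean of at least 5 CPM). Chil3, Ear2, Siglecf and the other marker examples were chosen after their values were seen. The 95% intervals use the t quantile with the degrees of freedom of edgeR. Libraries of a group differed beyond sampling noise (chi-square over its degrees of freedom 46.6 or more).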

Additional observations from a re-analysis of the deposited data

How the results depend on the processing

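Of the 10 chemokines, 3 were called higher and 1 lower. With 1 library left out, between 1 and 3 were called higher and between 0 and 2 lower, and the 1 was without control 2. The lower count was 2 with DESeq2, limma-voom or the replicate block, which added Ccl19, and 0 by edgeR without both replicates 1 (control 1 and TGFalpha 1), a choice made after seeing the data. Ccl12 stayed called in all 14 alternatives and Ccl7 in 13. Ccl6 (log2 fold change -0.62) reversed to 0.13 without control 1 and to 0.23 without both replicates 1, and ranged from -1.06 to 0.13 with 1 library left out. Ccl9 reversed to -0.08 with limma-voom, to -0.11 with the replicate block and to between -0.74 and -0.09 without control 2 (-0.09), control 3 (-0.17) or TGFalpha 2 (-0.74), and was 0.77 without both replicates 1. Ackr1 reversed to 0.21, 0.1, 0.19 and 0.1 without control 1, control 2, TGFalpha 1 and TGFalpha 3, and to 0.49 without both replicates 1. None of these was called, and the cause was not tested.

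Counts for the other lists, with the range when 1 library was left out, were as follows. The shares of all genes called in those left-out fits are given above. Other CC chemokines fell in 3 rows (0 to 3), and 1 rose with DESeq2 and with the replicate block. Receptors rose in 1 (0 to 1), and in 0 with DESeq2 size factors, with limma-voom and without both replicates 1. Atypical receptors fell in 2 (0 to 2), and in 1 with library totals only and without both replicates 1. Inducing cytokines fell in 1 (0 to 1), and in 0 with no filter, with at least 1 CPM in 3 libraries, with the replicate block and without both replicates 1. Regulators fell in 1 (0 to 1), in 2 with DESeq2 and in 0 without both replicates 1. Processing genes rose in 2, and in 4 with DESeq2, and fell in 2 (0 to 2), and in 0 with library totals only and without both replicates 1. The replicate numbers share only a number, since the deviations of same-numbered libraries correlated at 0.421, -0.052 and 0.222, and not every library correlated best with its own number. With the block 1470 of all genes were called, against 1340 without it. The summed level of the members had a log2 ratio of -0.40, which lay between -0.84 and 0.31 with 1 library left out and changed sign without control 1 (0.31). With 3 libraries a group, a gene that did not pass may still differ, as the intervals of Ccl6, Ccl9 and Ccl11 show.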
